A study of Mus musculus with 12 samples.

Results

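The mouse mitochondrial genome encodes 13 subunits of the respiratory chain and ATP synthase, 2 ribosomal RNAs (rRNAs) and 22 transfer RNAs (tRNAs). These 37 genes, taken as every gene whose symbol begins with mt-, were followed here among the 39179 gene IDs counted in Th17 and Th1 cells with and without the receptor NKG2D. All 37 were in the count tables. After a filter on low counts, 19 of them could be tested, namely the 13 protein genes, both rRNA genes and 4 tRNA genes.

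The cells were CD4 T cells of OT-II mice, whose transgenic receptor is specific for a peptide of ovalbumin. Each of the 4 groups held 3 samples: Th17 KO (OT-II x NKG2D-/-, sorted as Thy1.1+), Th17 WT (C57BL/6 x OT-II, sorted as Thy1.2+ NKG2D+), Th1 KO and Th1 WT, with the same strains and sorts as in Th17. KO and WT cells were cultured together with antigen-presenting cells, peptide and an antibody to CD28, polarized on day 0 and day 5, and sorted on day 8. Th17 cultures received IL-1b, IL-6 and IL-23 with antibodies to IFNg and IL-4, then also IL-12 after the second stimulation, while Th1 cultures received IL-12 and IL-2 with an antibody to IL-4. KO and WT cells thus differ in genotype, in the gate on NKG2D and in Thy1 allele, and these cannot be told apart. No source used here gives the ages of the mice. Nor do the labels say which samples came from separate animals or cultures, so the p-values rest on a spread between samples that may be technical.

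Mitochondrial DNA is transcribed from both strands into long precursors. Cutting out the tRNAs, which lie between most of the other genes, releases the rRNAs and mRNAs. 12S rRNA (mt-Rnr1) and 16S rRNA (mt-Rnr2) lie at the start of the heavy-strand transcripts and form the mitochondrial ribosome together with imported proteins. Most mitochondrial mRNAs and, with shorter tails, the rRNAs receive adenines at their 3′ end. In T cells, activation is known to increase mitochondrial mass and respiration. The sequencing libraries began with a poly-A-dependent cDNA synthesis, so the counts reflect RNA that this step could prime, not all mitochondrial RNA.

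Klrk1, which encodes NKG2D, was at 1.60 to 3.35 CPM (counts relative to a library's TMM-normalised total) in Th17 KO, 130.3 to 140.8 CPM in Th17 WT, 3.31 to 5.63 CPM in Th1 KO and 128.4 to 160.9 CPM in Th1 WT. The 7 T cell markers summed to between 9197 and 10830 CPM in every library. The 5 Th17 markers summed to 121.8 to 130.0 CPM in Th17 KO, 61.3 to 74.5 CPM in Th17 WT, 1.23 to 3.15 CPM in Th1 KO and 0.580 to 1.04 CPM in Th1 WT, with Il17a at 0 in both Th1 groups. The 5 Th1 markers were present in all groups, at 776 to 874 CPM in Th17 KO, 1111 to 1291 CPM in Th17 WT, 1234 to 1477 CPM in Th1 KO and 1481 to 1759 CPM in Th1 WT. The library totals were 1722228 to 11587560 counts in Th17 KO, 1647232 to 10405299 in Th17 WT, 9108203 to 12380583 in Th1 KO and 11241671 to 12688637 in Th1 WT. 3 libraries stood apart, Th17 KO 2, Th17 WT 2 and Th17 WT 3. They were the shallowest, and 1 unnamed gene ID, ENSMUSG00000045999, took 51.0%, 18.3% and 48.1% of their counts. That ID is left out of every share below. For Th17 against Th1, calls on members and counts over gene lists that change without these 3 libraries are given with the member or the list, and that fit leaves 1 Th17 WT library, which is assumed to vary like the other groups.

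Several features of the genes bear on how their reads could be assigned. The sequences below are read from the GENCODE M21 transcripts (GRCm38), 5′ to 3′, and all lie on the plus strand. The first 5 are the last 30 bases of coding sequences, shown because the 3′ ends are where poly-A priming starts and because some mitochondrial stop codons exist only after adenines are added. Capitals mark the stop codon or the part of it that is encoded.
mt-Co3 (chrM:9361-9390): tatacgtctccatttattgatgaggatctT
mt-Nd4 (chrM:11515-11544): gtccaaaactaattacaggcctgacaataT
mt-Cytb (chrM:15259-15288): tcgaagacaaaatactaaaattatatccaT
mt-Co1 (chrM:6843-6872): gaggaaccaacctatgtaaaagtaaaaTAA
mt-Nd1 (chrM:3678-3707): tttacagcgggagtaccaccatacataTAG
In mt-Co3, mt-Nd4 and mt-Cytb the gene ends in a lone T, and in mt-Co1 and mt-Nd1 the full stop codon is encoded. The next 3 sequences are whole genes that overlap a neighbour or were among the tRNAs tested. Capitals in mt-Atp8 mark the 43 bases it shares with the start of mt-Atp6. Capitals in mt-Tw mark the 2 bases it shares with the end of mt-Nd2, and mt-Tl1 shares none.
mt-Atp8 (chrM:7766-7969): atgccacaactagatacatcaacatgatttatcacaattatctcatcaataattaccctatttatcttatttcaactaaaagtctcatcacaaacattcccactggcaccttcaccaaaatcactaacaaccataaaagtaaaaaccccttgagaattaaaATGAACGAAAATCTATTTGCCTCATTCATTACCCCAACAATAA
mt-Tl1 (chrM:2676-2750): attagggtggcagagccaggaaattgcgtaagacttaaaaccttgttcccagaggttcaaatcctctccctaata
mt-Tw (chrM:4950-5016): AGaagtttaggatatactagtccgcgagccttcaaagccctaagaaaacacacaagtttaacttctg

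The library kit does not mark strand. Reads of mt-Nd5 and mt-Nd6, which overlap by 14 bases on opposite strands, and of other antisense neighbours therefore cannot be told apart by strand. The limit is not confined to the overlap. Plus-strand precursors that run through mt-Nd6 or a minus-strand tRNA gene could be counted there along its whole length. The part of such reads in the mt-Nd6 values below was not tested. Chromosome 1 carries nuclear copies of several members in the same annotation. Over their compared lengths, Gm28439 matched mt-Nd4 at 876 of 876 bases, Gm28437 matched mt-Co3 at 783 of 783, Gm10925 matched mt-Atp6 at 678 of 678 and Gm28661 matched mt-Co2 at 681 of 681. Gm28438 matched mt-Nd3 at 344 of 345 bases and Gm29216 matched mt-Co1 at 486 of 492. No counts of these copies were used here. These copies follow one another along the minus strand in the order of the members they match. The stretches between them were not compared with the members that lie in between. Those members are mt-Atp8, mt-Nd4l and the tRNAs mt-Ts1, mt-Td, mt-Tk, mt-Tg and mt-Tr. How the authors treated reads that map to more than 1 place was not stated in the sources used here. The levels of these 6 members are thus uncertain to the extent that shared reads were split or dropped, and those of the members in between may be too.

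The levels of the rRNA and protein genes spanned several orders of magnitude (levels are compared between genes as CPM per kilobase, here of the library total without ENSMUSG00000045999 and without TMM, averaged over the 12 libraries). mt-Rnr2 had the highest level of the 15, 86030, followed by mt-Rnr1 at 11700. Of the genes for cytochrome c oxidase (complex IV), mt-Co1 stood at 5573, mt-Co3 at 3648 and mt-Co2 at 3470. Both rRNAs and mt-Co1 kept their places in 12 of 12 libraries with ranges apart from the next gene, while mt-Co3 was above mt-Co2 in 11 of 12 libraries and their ranges overlapped. The ATP synthase (complex V) genes followed, with mt-Atp6 at 2499 and mt-Atp8 at 1768 CPM per kilobase. mt-Nd1, the complex I gene nearest to the rRNAs, stood at 1531, and mt-Cytb, the complex III gene, at 1208. The places of mt-Atp8 and mt-Nd1 were exchanged in some libraries, since mt-Atp8 was higher in 9 of 12, and mt-Cytb was above mt-Nd3 (1008) in 9 of 12.

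The remaining complex I genes had the lowest levels per length. mt-Nd2 was at 475.4, mt-Nd4 at 316.9 and mt-Nd5 at 246.8 CPM per kilobase, in that order in 12 of 12 libraries though with overlapping ranges. mt-Nd6, the only protein gene annotated on the minus strand, was at 38.2 CPM per kilobase. mt-Nd4l was lowest at 7.28, with 180 counts in all libraries together. mt-Nd4l and mt-Nd4 are known to share 1 mRNA and overlap by 7 bases, yet their levels per length differed in this way in every library, as the plot of levels by gene shows. The part of read assignment in that difference was not tested.

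**Figure D1:**
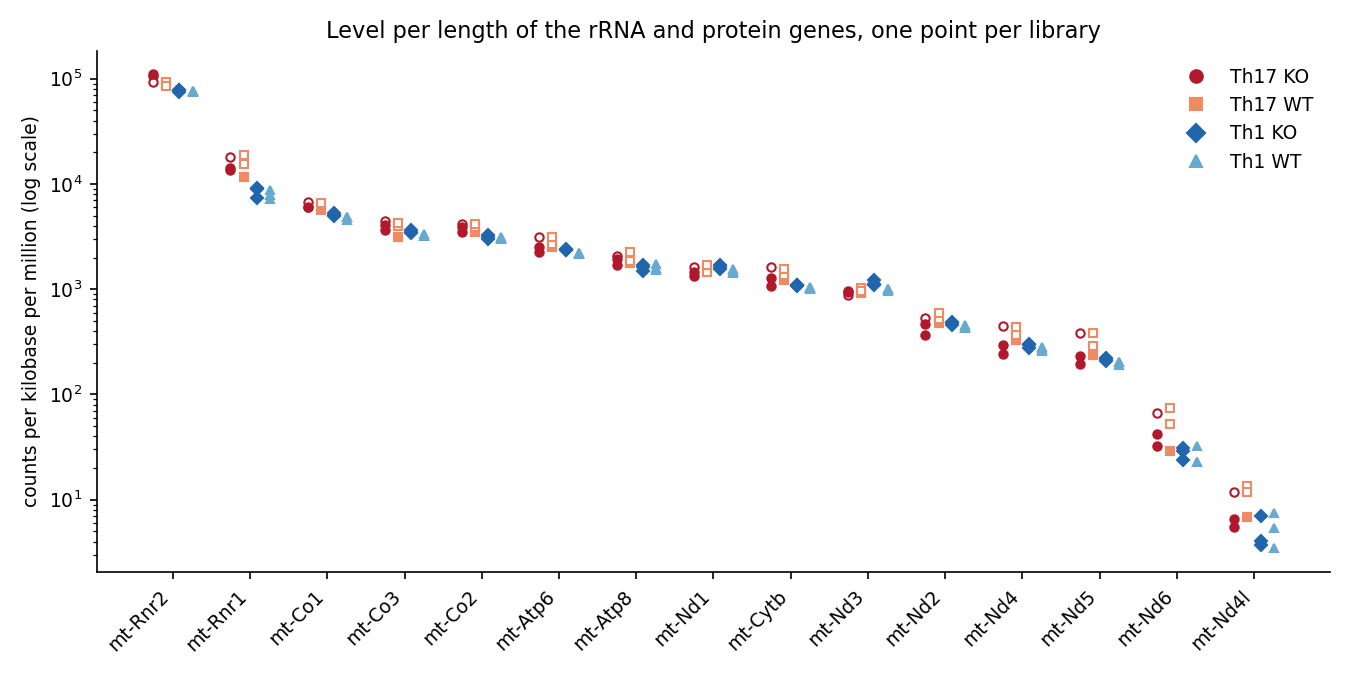
Level of the 2 rRNA and 13 protein genes in CPM per kilobase (log scale), ordered by mean level, with 1 point per library and colours for the 4 groups (open points are the 3 shallow libraries). mt-Rnr2 lies above all others and mt-Nd6 and mt-Nd4l lie below the other 13 genes in every library.

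tRNAs took a very small part of the counts. The 22 genes together had 10 to 194 counts in a library and 1329 of the 17039689 mitochondrial counts in all. 7 of them (mt-Tf, mt-Td, mt-Tk, mt-Tg, mt-Tr, mt-Th and mt-Ts2) had 0 counts in all 12 libraries, which allows up to 0.236 CPM in the deepest library and 1.82 CPM in the shallowest (of the whole library total, counting error only). 11 more were counted but too low to test. mt-Tl1, a leucine tRNA, had the most counts, 562, followed by the tryptophan tRNA mt-Tw with 241, the threonine tRNA mt-Tt with 216 and the proline tRNA mt-Tp with 88.

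Most of the mitochondrial counts came from 1 gene. mt-Rnr2 took 16.9%, 14.8% and 17.4% of the counts in Th17 KO, 13.7%, 14.8% and 13.4% in Th17 WT, 12.3%, 12.3% and 11.8% in Th1 KO, and 11.7%, 12.1% and 12.2% in Th1 WT. That was 75.95% to 83.35% of the mitochondrial counts of a library. Every Th17 library was above every Th1 library. Th17 KO and Th17 WT overlapped, because the shallow library Th17 KO 2 lay just under Th17 WT 2.

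mt-Rnr1 took 1.35%, 1.73% and 1.29% of the counts in Th17 KO, 1.11%, 1.47% and 1.79% in Th17 WT, 0.697%, 0.847% and 0.868% in Th1 KO, and 0.682%, 0.752% and 0.828% in Th1 WT. The 13 protein genes together took 2.04%, 2.49% and 2.18% in Th17 KO, 2.03%, 2.27% and 2.46% in Th17 WT, 1.98%, 1.91% and 1.86% in Th1 KO, and 1.82%, 1.80% and 1.77% in Th1 WT. For both, all Th17 libraries lay above all Th1 libraries, and within Th17 the 3 shallow libraries were the highest. In Th1 the protein genes' share was higher in each KO library than in any WT library, by 0.123 percentage points of the means.

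These components did not contribute equally to the differences in the summed share of all 37 genes. Th17 KO exceeded Th1 KO by 5.16 percentage points, of which mt-Rnr2 made up 4.19, mt-Rnr1 0.652 and the protein genes 0.316. Th17 WT exceeded Th1 WT by 3.15 points, of which mt-Rnr2 made up 1.99, mt-Rnr1 0.703 and the protein genes 0.455. Leaving out the 3 shallow libraries, the excess in KO cells was 5.67 points (mt-Rnr2 4.97, mt-Rnr1 0.515, protein genes 0.188). In WT cells, with 1 Th17 library left, it was 2.32 points (mt-Rnr2 1.73, mt-Rnr1 0.356, protein genes 0.234). Th17 KO exceeded Th17 WT by 2.34 points, and mt-Rnr2 alone differed by 2.36 points. Without mt-Rnr2, a choice made after seeing the data, that last difference was -0.017 points, from 3.69% ± 0.46 in Th17 KO and 3.71% ± 0.55 in Th17 WT (SD, n = 3 each). Without the 3 shallow libraries the Th17 KO share stood 3.68 points above the 1 remaining Th17 WT library. There mt-Rnr2 differed by 3.39 points, mt-Rnr1 by 0.2095 and the protein genes by 0.077, and the share without mt-Rnr2 by 0.2865. The difference outside mt-Rnr2 thus changed when the shallow libraries were left out. With 1 Th17 WT library left, the spread of that value is not known. Th1 KO and Th1 WT overlapped, with a difference of 0.327 points. With ENSMUSG00000045999 kept in the totals, the difference between Th17 WT and Th1 WT turned to -0.816 points. In bulk RNA, more mitochondrial RNA per cell, less other RNA per cell and a different mix of cells cannot be told apart.

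**Figure D2:**
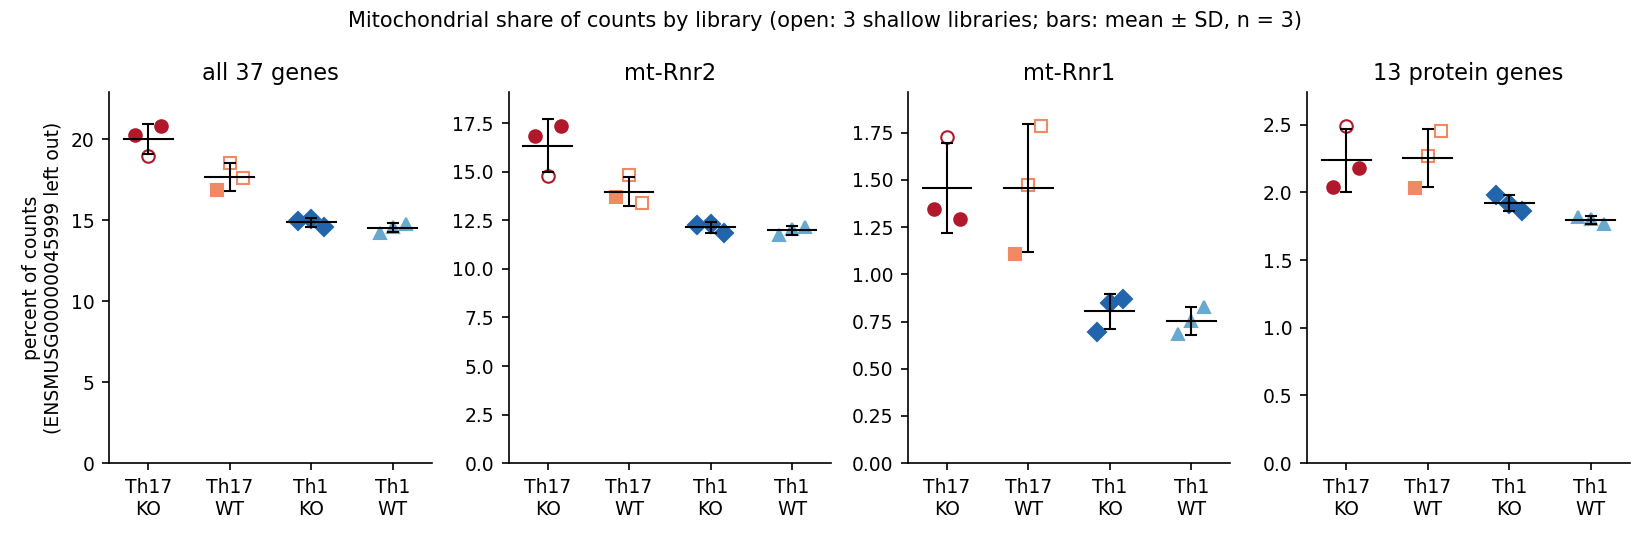
Percent of each library's counts, without ENSMUSG00000045999, taken by all 37 genes, mt-Rnr2, mt-Rnr1 and the 13 protein genes, with 1 point per library (open points are the 3 shallow libraries) and the mean ± SD of each group (n = 3). In all 4 panels every Th17 library lies above every Th1 library, and mt-Rnr2 sets the scale of the sum.

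Whether the polarization state changes mitochondrial RNA was asked of each gene with edgeR's quasi-likelihood test over all 12189 tested genes, at an adjusted p of 0.05. In KO cells 8 members were higher and 2 lower in Th17 than in Th1, 10 of 19 (52.6%), where 53.6% of all genes passed. In WT cells 7 were higher and 2 lower, 9 of 19 (47.4%), where 47.1% of all genes passed. The shares of members called were thus near the background in both. The median log2 fold change of the 19 was 0.29 in KO and 0.27 in WT cells, against 0.00 and -0.01 over all genes. 26.9% of all genes passed as higher and 26.7% as lower in KO cells, and 23.5% and 23.6% in WT cells. By CPM ranges, 9 members lay wholly higher and 2 wholly lower in Th17 KO than in Th1 KO, where 55.7% of all genes were apart (27.1% higher, 28.6% lower). In Th17 WT against Th1 WT 10 lay wholly higher and 1 wholly lower, where 52.1% of all genes were apart (24.6% higher, 27.5% lower). Of the members called, 6 of 10 in KO and 5 of 9 in WT cells passed in all 19 alternatives run, and those that did not are named with their genes below.

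12S rRNA had the largest rise among the members called in both genotypes. mt-Rnr1 (ENSMUSG00000064337) was at 12150, 15340 and 11640 CPM in Th17 KO, 9787, 13000 and 15850 CPM in Th17 WT, 6001, 7287 and 7364 CPM in Th1 KO, and 5918, 6623 and 7288 CPM in Th1 WT. No Th17 library overlapped a Th1 library. The log2 fold change was 0.92 ± 0.16 (SE) in KO cells (edgeR adjusted p = 3.26e-04) and 0.96 ± 0.16 in WT cells (edgeR adjusted p = 2.84e-04). In WT cells it ranged between 0.57 and 1.12 over the alternatives, lowest without the 3 shallow libraries.

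16S rRNA followed with smaller changes. mt-Rnr2 (ENSMUSG00000064339) was at 152000, 131000 and 156500 CPM in Th17 KO, 120900, 130700 and 118900 CPM in Th17 WT, 105600, 106100 and 100300 CPM in Th1 KO, and 101900, 106200 and 107100 CPM in Th1 WT. All Th17 libraries again lay above all Th1 libraries. In KO cells the log2 fold change was 0.49 ± 0.11 (edgeR adjusted p = 6.11e-04). In WT cells it was 0.23 ± 0.11 and did not pass (edgeR adjusted p = 0.0923), but it passed when ENSMUSG00000045999 was removed (adjusted p = 0.00564), without the 3 shallow libraries (adjusted p = 0.0136) and in DESeq2 (adjusted p = 0.00154). The difference between the 2 changes was 0.26 ± 0.16 and did not pass (edgeR interaction, adjusted p = 0.663). Within the mitochondrial counts, mt-Rnr1 took 7.32% ± 1.56 of mitochondrial counts in Th17 KO, 8.22% ± 1.79 in Th17 WT, 5.41% ± 0.67 in Th1 KO and 5.18% ± 0.41 in Th1 WT (SD, n = 3 each), with the Th17 and Th1 ranges apart in both genotypes.

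The 3 mitochondrial subunits of complex IV, which form its catalytic core, were all called higher in Th17. mt-Co1, the subunit that binds and reduces oxygen, was at 8362, 9237 and 8378 CPM in Th17 KO, 7784, 8598 and 8988 CPM in Th17 WT, 7005, 6732 and 6460 CPM in Th1 KO, and 6536, 6542 and 6248 CPM in Th1 WT. The Th17 and Th1 ranges did not meet in either genotype. Its log2 fold change was 0.36 ± 0.08 in KO cells (edgeR adjusted p = 4.99e-04) and 0.39 ± 0.08 in WT cells (edgeR adjusted p = 2.69e-04).

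mt-Co2, which takes electrons from cytochrome c, was at 2167, 2522 and 2389 CPM in Th17 KO, 2092, 2370 and 2524 CPM in Th17 WT, 1911, 1825 and 1743 CPM in Th1 KO, and 1872, 1802 and 1830 CPM in Th1 WT. It too separated the 2 states without overlap, with log2 fold changes of 0.37 ± 0.07 in KO cells (edgeR adjusted p = 1.58e-04) and 0.34 ± 0.07 in WT cells (edgeR adjusted p = 4.39e-04). Without the 3 shallow libraries the mt-Co2 value in WT cells was 0.19 (adjusted p = 0.0371). mt-Co3 was at 2608, 3076 and 2873 CPM in Th17 KO, 2187, 2763 and 2929 CPM in Th17 WT, 2477, 2336 and 2251 CPM in Th1 KO, and 2157, 2328 and 2186 CPM in Th1 WT. Only the KO groups were apart for mt-Co3, since the deep library Th17 WT 1 lay among the Th1 WT libraries. Its log2 fold change was 0.28 ± 0.09 in KO cells (edgeR adjusted p = 0.0105), a call lost without Th17 KO 2 (adjusted p = 0.061). In WT cells it was 0.24 ± 0.09 (edgeR adjusted p = 0.0292), and this call was lost without Th17 WT 2 (adjusted p = 0.119), Th17 WT 3 (0.212), Th1 WT 1 (0.0934) or Th1 WT 3 (0.0813). Without all 3 shallow libraries the mt-Co3 value in WT cells was -0.02 (adjusted p = 0.855).

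ATP synthase and complex III genes were also called higher. mt-Atp6, the proton channel subunit, was at 1397, 1891 and 1560 CPM in Th17 KO, 1525, 1617 and 1882 CPM in Th17 WT, 1426, 1374 and 1361 CPM in Th1 KO, and 1299, 1284 and 1336 CPM in Th1 WT. The WT groups were apart, while Th17 KO 1 lay within the Th1 KO range. The log2 fold change was 0.21 ± 0.09 in KO cells (edgeR adjusted p = 0.0487) and 0.35 ± 0.09 in WT cells (edgeR adjusted p = 0.00259). In KO cells that call was lost in 13 of 19 alternatives, among them DESeq2 (adjusted p = 0.052), the fit without the 3 shallow libraries (0.08, adjusted p = 0.233) and 9 fits that leave out 1 library, every one except those without Th17 KO 1, Th17 WT 1 or Th17 WT 3. Its value was 0.09 (adjusted p = 0.349) without Th17 KO 2. In WT cells it was 0.23 (adjusted p = 0.0136) without the shallow libraries.

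mt-Atp8, whose open reading frame overlaps that of mt-Atp6 in the sequence above, was at 315.0, 371.8 and 354.8 CPM in Th17 KO, 317.1, 331.8 and 407.0 CPM in Th17 WT, 288.4, 298.2 and 255.9 CPM in Th1 KO, and 270.4, 287.6 and 308.2 CPM in Th1 WT. Th17 lay above Th1 in each genotype without overlap, by 0.29 ± 0.09 on the log2 scale in KO cells (edgeR adjusted p = 0.00672) and 0.26 ± 0.09 in WT cells (edgeR adjusted p = 0.0179). The call in WT cells was lost without the 3 shallow libraries (0.14, adjusted p = 0.263), without Th17 WT 3 (adjusted p = 0.0951), and without Th1 WT 1 (0.075) or Th1 WT 2 (0.0501). mt-Cytb, cytochrome b of complex III, was at 1107, 1658 and 1308 CPM in Th17 KO, 1244, 1386 and 1588 CPM in Th17 WT, 1080, 1070 and 1049 CPM in Th1 KO, and 1029, 1006 and 1063 CPM in Th1 WT. All Th17 libraries were above all Th1 libraries, though Th17 KO 1 only slightly. The log2 fold change was 0.34 ± 0.12 in KO cells (edgeR adjusted p = 0.0378), lost in 9 of 19 alternatives, and 0.44 ± 0.12 in WT cells (edgeR adjusted p = 0.0121), which passed in all 19. The call in KO cells was lost with only the 2 groups in the fit, without Th17 KO 2 (0.18, adjusted p = 0.0802), and without Th17 KO 3, Th17 WT 2, Th1 WT 1, Th1 WT 3 or any 1 of the Th1 KO libraries (highest adjusted p = 0.106). Without the 3 shallow libraries the mt-Cytb values were 0.17 in KO cells (adjusted p = 0.0279) and 0.27 in WT cells (adjusted p = 0.00857).

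Of the 7 mitochondrial genes of complex I, the entry point of electrons from NADH, mt-Nd3 was called lower in Th17 in KO cells and no other passed in either genotype in edgeR. At an unadjusted p under 0.05 there were 1 in KO cells (mt-Nd3) and 3 in WT cells (mt-Nd2, mt-Nd4 and mt-Nd5), and DESeq2 called mt-Nd2, mt-Nd4 and mt-Nd6 in WT cells. mt-Nd3, a small membrane subunit, was at 299.4, 273.1 and 296.7 CPM in Th17 KO, 282.5, 316.0 and 295.9 CPM in Th17 WT, 328.2, 332.4 and 359.7 CPM in Th1 KO, and 305.3, 310.7 and 292.4 CPM in Th1 WT. Th1 KO lay above the other 3 groups without overlap, and the WT groups overlapped. The log2 fold change was -0.22 ± 0.06 in KO cells (edgeR adjusted p = 0.00412) and -0.03 ± 0.06 in WT cells (edgeR adjusted p = 0.772). The difference between them did not pass (edgeR interaction, -0.19 ± 0.09, adjusted p = 0.476).

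mt-Nd1 was at 1146, 1383 and 1246 CPM in Th17 KO, 1232, 1232 and 1437 CPM in Th17 WT, 1403, 1342 and 1256 CPM in Th1 KO, and 1292, 1253 and 1207 CPM in Th1 WT. Its groups overlapped in both genotypes, with log2 fold changes of -0.09 ± 0.07 in KO cells and 0.05 ± 0.07 in WT cells. Without the 3 shallow libraries mt-Nd1 was called lower in KO cells (-0.17, edgeR adjusted p = 0.0219). mt-Nd2 was at 340.8, 489.5 and 438.8 CPM in Th17 KO, 436.6, 481.3 and 548.2 CPM in Th17 WT, 428.7, 436.8 and 399.1 CPM in Th1 KO, and 383.8, 397.2 and 420.6 CPM in Th1 WT. It separated the WT groups and not the KO groups, and its value in WT cells, 0.27 ± 0.11, just missed the threshold (edgeR adjusted p = 0.0613) but passed in 6 alternatives: DESeq2 (adjusted p = 0.0243), no filter, only the 2 groups, and the fits without Th17 KO 1, Th17 KO 2 or Th17 WT 1.

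For mt-Nd4, mt-Nd5 and mt-Nd6 the fold changes were not small, but neither was the spread. mt-Nd4 was at 299.2, 543.1 and 365.9 CPM in Th17 KO, 400.4, 450.1 and 533.7 CPM in Th17 WT, 353.0, 357.6 and 325.4 CPM in Th1 KO, and 335.6, 324.8 and 316.7 CPM in Th1 WT. mt-Nd5 was at 318.9, 621.8 and 384.2 CPM in Th17 KO, 379.8, 466.7 and 616.8 CPM in Th17 WT, 346.8, 337.1 and 318.4 CPM in Th1 KO, and 302.8, 330.0 and 327.5 CPM in Th1 WT. In both genes the 3 shallow libraries were the 3 highest of all 12, and the WT groups were apart while the KO groups overlapped. In WT cells the log2 fold changes were 0.48 ± 0.19 for mt-Nd4 (edgeR adjusted p = 0.0676) and 0.57 ± 0.24 for mt-Nd5 (edgeR adjusted p = 0.0866). Without the shallow libraries they were smaller and passed, at 0.30 (adjusted p = 0.0155) and 0.25 (adjusted p = 0.0344), resting on 1 Th17 WT library. With only the 2 groups in the fit both also passed (adjusted p = 1.01e-04 and 0.0437), as they did without Th17 KO 2 (6.02e-04 and 0.0174), and mt-Nd4 passed without Th17 KO 1 (0.0206).

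mt-Nd6 was at 15.2, 30.5 and 19.7 CPM in Th17 KO, 13.1, 24.1 and 34.3 CPM in Th17 WT, 12.9, 13.8 and 10.5 CPM in Th1 KO, and 10.2, 10.5 and 14.9 CPM in Th1 WT. The KO groups were apart and the WT groups overlapped at Th17 WT 1. Its log2 fold changes of 0.57 ± 0.30 in KO cells (edgeR adjusted p = 0.134) and 0.62 ± 0.33 in WT cells (edgeR adjusted p = 0.164) did not pass. In KO cells mt-Nd6 passed in 4 alternatives, namely without the shallow libraries (0.48, adjusted p = 0.035), with no filter (0.0404), with only the 2 groups (0.0106) and without Th17 WT 1 (0.0232). In WT cells it passed in 2, without Th17 WT 1 (1.19, adjusted p = 0.00502) and in DESeq2 (adjusted p = 0.0334). mt-Nd4l, with 3 to 25 counts in a library, gave 0.43 ± 0.38 and 0.70 ± 0.41 and did not pass.

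**Figure D3:**
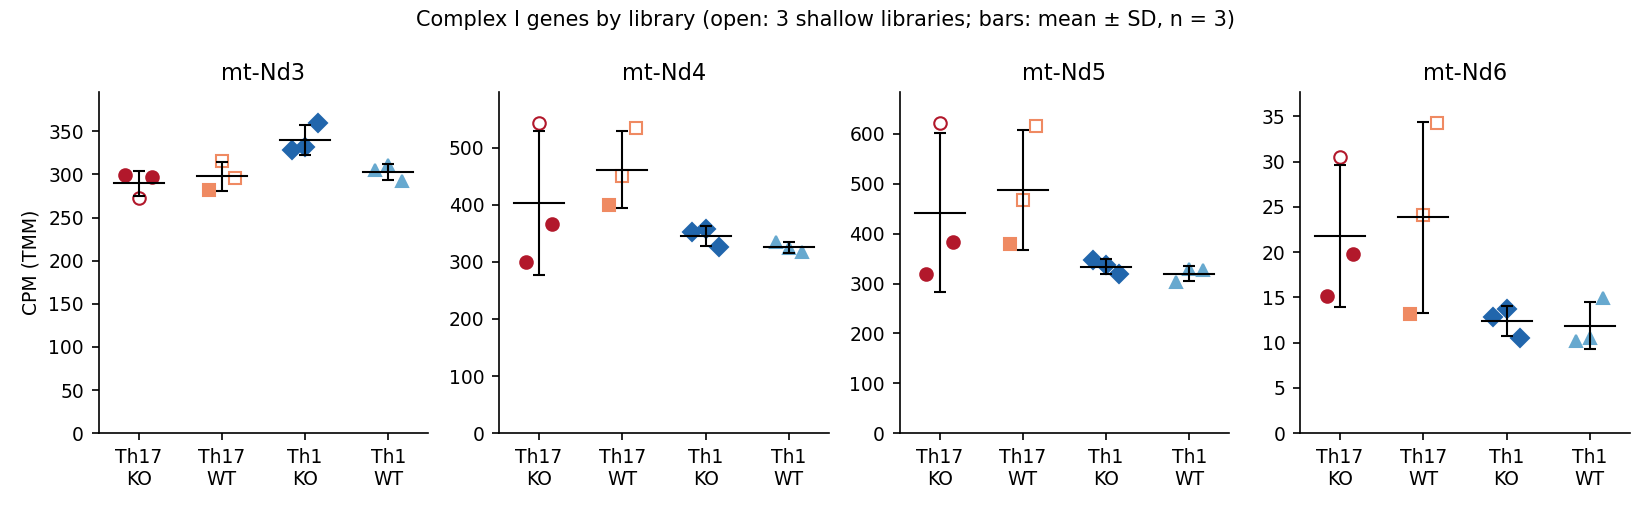
TMM-normalised CPM of the complex I genes mt-Nd3, mt-Nd4, mt-Nd5 and mt-Nd6, with 1 point per library (open points are the 3 shallow libraries) and the mean ± SD of each group (n = 3). The open points are the highest in mt-Nd4, mt-Nd5 and mt-Nd6, and not in mt-Nd3, where Th1 KO is highest.

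The shallow libraries moved with the levels of other members too. Within Th17, 9 of the 19 tested members were higher in all 3 shallow libraries than in all 3 deep ones and 0 were lower. Of all tested genes, 7.10% were higher and 10.2% lower in the same way. The ratio of the shallow to the deep mean was 1.96 for mt-Nd4l, 1.85 for mt-Nd6, 1.58 for mt-Nd5, 1.43 for mt-Nd4, 1.32 for mt-Rnr1 and 1.27 for mt-Cytb. For mt-Nd3 it was 1.01 and for mt-Rnr2 0.887. The part of depth and of the unnamed ID in the Th17 values was not tested beyond the fits without them.

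Of the 4 tRNA genes tested, mt-Tl1 was lower in Th17 in both genotypes and mt-Tw in WT cells. mt-Tl1 had 41, 4 and 35 counts in Th17 KO, 33, 7 and 6 in Th17 WT, 60, 69 and 63 in Th1 KO, and 95, 76 and 73 in Th1 WT. Normalised, that was 2.94 to 4.20 CPM in Th17 KO, 2.77 to 6.23 CPM in Th17 WT, 4.79 to 5.67 CPM in Th1 KO and 5.06 to 6.89 CPM in Th1 WT. The KO groups did not overlap, and in WT cells the shallow library Th17 WT 3, with 6 counts, lay within the Th1 range. mt-Tl1 fell by 0.72 ± 0.22 on the log2 scale in KO cells (edgeR adjusted p = 0.00829) and by 0.95 ± 0.25 in WT cells (edgeR adjusted p = 0.00301). The call in KO cells was lost without Th17 KO 3 (adjusted p = 0.0567) and that in WT cells without Th17 WT 1 (adjusted p = 0.202).

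mt-Tw had 13, 1 and 21 counts in Th17 KO, 15, 5 and 1 in Th17 WT, 26, 31 and 19 in Th1 KO, and 36, 33 and 40 in Th1 WT. After normalisation the WT groups were apart and the KO groups overlapped. mt-Tw was lower in Th17 WT by a log2 fold change of -0.93 ± 0.36 (edgeR adjusted p = 0.0369), and this call was lost in 8 of 19 alternatives: without Th17 WT 1 (adjusted p = 0.427), Th17 WT 3, Th1 WT 1, Th1 WT 2 or Th1 WT 3, without the 3 shallow libraries, with no filter and in DESeq2 (0.145). In KO cells the value was -0.58 ± 0.32 and did not pass (edgeR adjusted p = 0.138). mt-Tt and mt-Tp did not pass in either genotype, with at most 33 counts in a library.

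**Figure D4:**
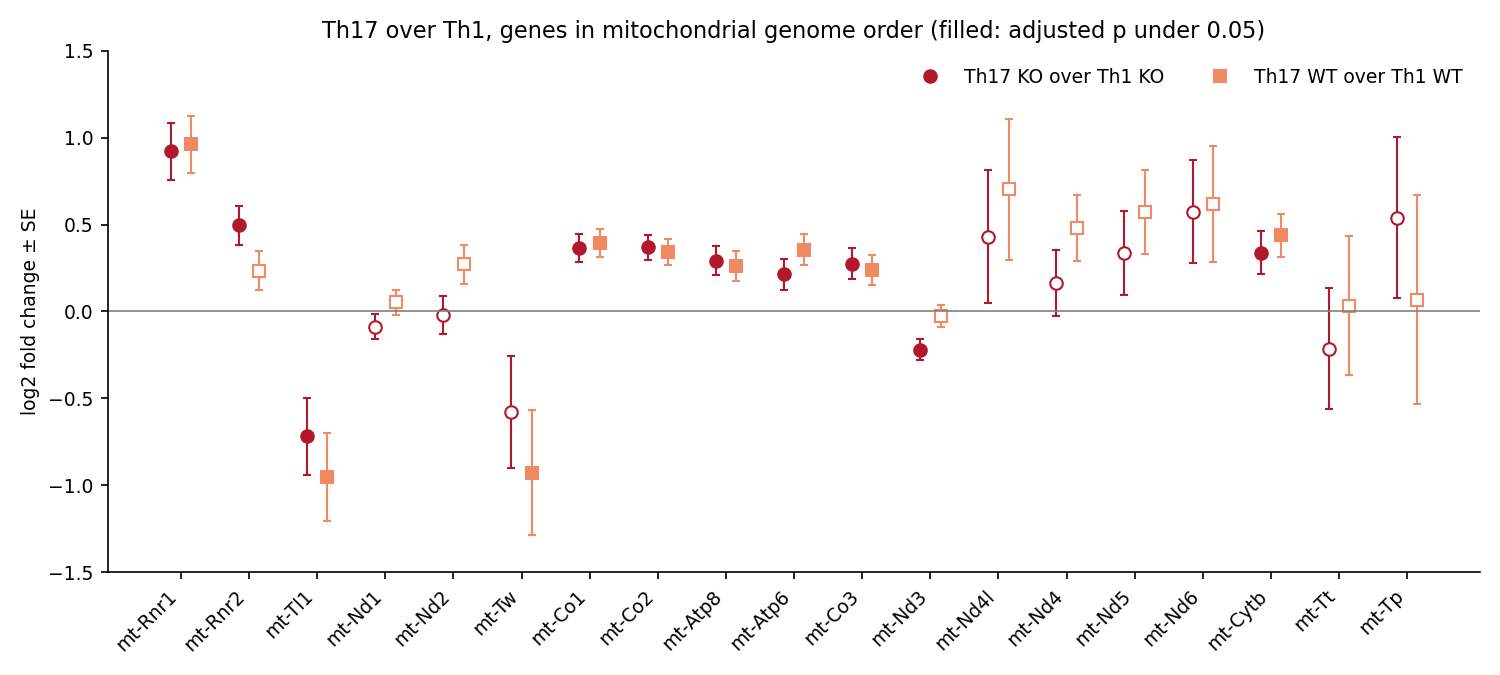
Log2 fold change ± SE of Th17 over Th1 for the 19 tested members in genome order, in KO cells (circles) and WT cells (squares), with filled symbols for an edgeR adjusted p under 0.05. mt-Rnr1 is the highest filled point in both genotypes, the complex IV, complex V and mt-Cytb points lie between 0.21 and 0.44, and mt-Tl1 lies below 0.

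Within the counts of the 13 protein genes, which removes the total mitochondrial share from the picture, the mix differed between the states. mt-Nd1 made up 6.28% in Th17 KO, 6.54% in Th17 WT, 8.11% in Th1 KO and 7.94% in Th1 WT, with Th17 below Th1 and no overlap in either genotype. mt-Nd3 made up 1.46% in Th17 KO, 1.51% in Th17 WT, 2.07% in Th1 KO and 1.92% in Th1 WT, again without overlap. For mt-Nd2 only the KO groups were apart, with 2.102% in Th17 KO below 2.565% in Th1 KO, beside 2.453% in Th17 WT and 2.545% in Th1 WT. The complex I genes mt-Nd4 and mt-Nd5 took larger parts in Th17 WT than in Th1 WT, also without overlap. mt-Nd4 made up 1.98% in Th17 KO, 2.31% in Th17 WT, 2.10% in Th1 KO and 2.07% in Th1 WT. mt-Nd5 made up 2.17% in Th17 KO, 2.43% in Th17 WT, 2.03% in Th1 KO and 2.03% in Th1 WT. In the deep library Th17 WT 1 it made up 2.122%, just above the highest Th1 WT value of 2.106%. For mt-Cytb of complex III the share was 6.73% in Th17 KO, 7.05% in Th17 WT, 6.49% in Th1 KO and 6.56% in Th1 WT. The KO groups overlapped in these 3 genes. mt-Co1 was the largest part, with 43.3% in Th17 KO, 42.6% in Th17 WT, 41.0% in Th1 KO and 40.9% in Th1 WT, and its KO groups were apart while its WT groups overlapped. The same held for mt-Co2, with 11.8% in Th17 KO, 11.7% in Th17 WT, 11.1% in Th1 KO and 11.7% in Th1 WT. These are shares of 1 total, so a higher share of one gene lowers the others, and they are given without a test.

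Whether NKG2D changes mitochondrial RNA was asked by comparing KO with WT in each cell type. In Th17 cells edgeR called 0 of the 19 members, where 5.83% of all genes passed (1.81% higher, 4.02% lower). 1 member had an unadjusted p under 0.05 and DESeq2 called 1, in both cases mt-Rnr2. Its CPM values, given above, were higher in all 3 KO libraries than in all 3 WT libraries, with 131000 in Th17 KO against 130700 in Th17 WT at the closest. The log2 fold change was 0.25 ± 0.11 (edgeR adjusted p = 0.249, and 0.00737 to 0.523 over the alternatives). It passed without ENSMUSG00000045999 (0.25, adjusted p = 0.0327), without the 3 shallow libraries (0.34, adjusted p = 0.00737) and in DESeq2 (0.24, adjusted p = 0.0157). mt-Rnr2 was the only one of the 19 whose Th17 KO and Th17 WT ranges were apart, where 18.5% of all genes were (8.94% higher, 9.59% lower).

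The other members in Th17 had smaller or less certain differences. mt-Co3 was at 0.12 ± 0.09 (edgeR adjusted p = 0.538) and passed without the 3 shallow libraries (0.32, adjusted p = 0.0363). mt-Nd4 was at -0.23 ± 0.20 (edgeR adjusted p = 0.629) and passed without Th17 KO 2 (-0.44, adjusted p = 0.0199), the library with the highest mt-Nd4 of its group. mt-Nd2 passed with neighbouring library codes as a block (-0.24, adjusted p = 0.0141), a pairing that the labels do not state. 6 of the 7 complex I genes had negative values and none passed in the main fit. Their median was -0.17, against 0.00 over all genes, of which 6143 of 12189 had positive values. Without the 3 shallow libraries mt-Nd3 turned from -0.03 to 0.07, and mt-Nd6, the 1 positive value, went from 0.01 to 0.40. The 2 other complex IV genes, mt-Co1 (0.03 ± 0.08) and mt-Co2 (0.02 ± 0.07), and 12S rRNA (0.02 ± 0.16) were close to 0.

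In Th1 cells edgeR also called 0 of the 19 members, where 4.61% of all genes passed (1.69% higher, 2.92% lower). 1 had an unadjusted p under 0.05, mt-Nd3, and DESeq2 called 0. mt-Nd3 was higher in every KO library than in any WT library, by 0.17 ± 0.06 on the log2 scale (edgeR adjusted p = 0.124). It passed in 3 alternatives, with only the Th1 groups in the fit (adjusted p = 0.0264), without the 3 shallow Th17 libraries (0.0435) and with neighbouring library codes as a block (0.0266). mt-Atp6 was also apart and higher in KO (0.09 ± 0.09), and mt-Tw apart and lower (-0.38 ± 0.26), 3 of 19 in all, where 24.5% of all genes had ranges apart (11.1% higher, 13.4% lower). Neither passed the test. 13 of the 19 values were positive, where 6025 of all 12189 genes were. The 19 values lay between -0.38 and 0.17, with a median of 0.06, against -0.002 over all genes.

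Averaged over both cell types, edgeR called 0 of 19 members, where 9.83% of all genes passed (3.19% higher, 6.64% lower). None had an unadjusted p under 0.05, and DESeq2 called 0. Without the 3 shallow libraries 2 passed, mt-Rnr2 (0.17, adjusted p = 0.0152) and mt-Co3 (0.20, adjusted p = 0.0114). The test of whether the genotype difference itself differed between Th17 and Th1 also called 0 of 19 in edgeR and 0 in DESeq2, where edgeR called 0.591% of all genes. 1 member, mt-Nd3, had an unadjusted p under 0.05 there. With the same block of library codes, mt-Nd2 passed in that test (-0.31, adjusted p = 0.0473).

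**Figure D5:**
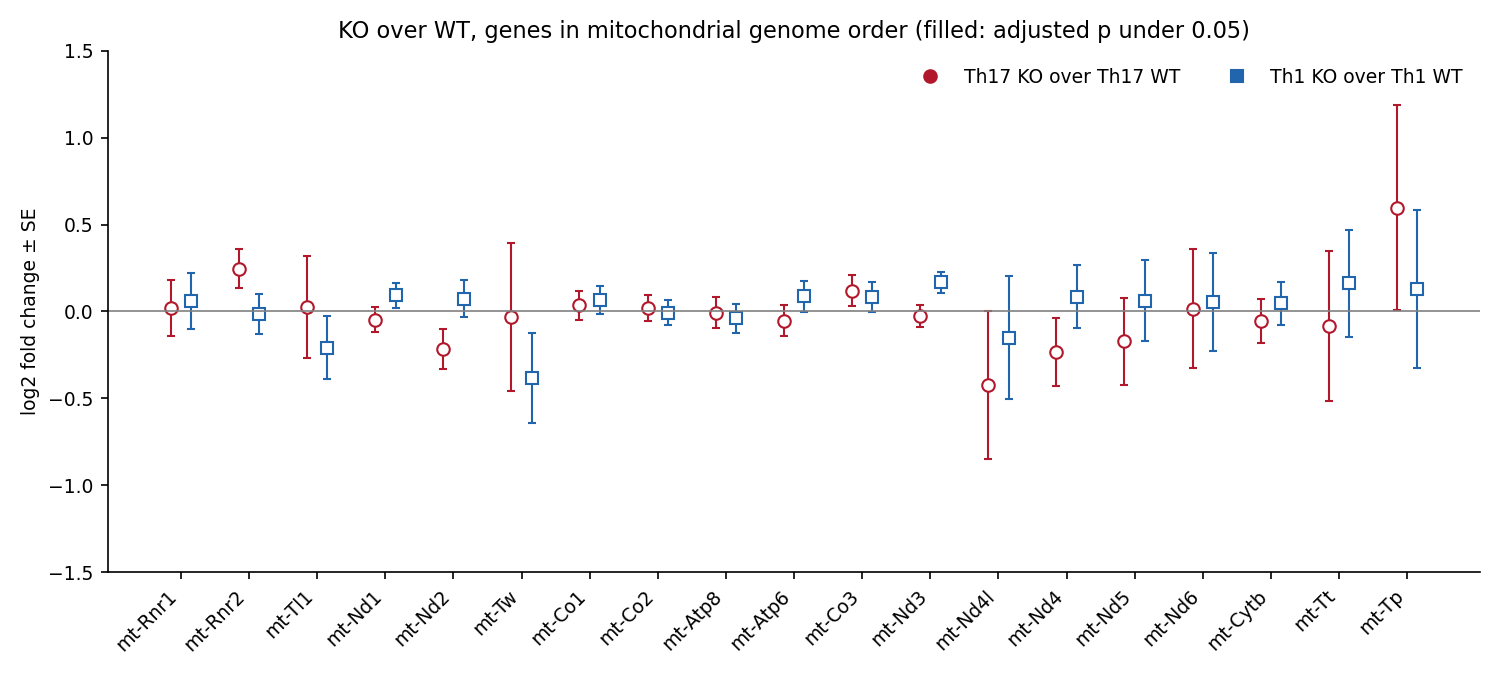
Log2 fold change ± SE of KO over WT for the 19 tested members in genome order, in Th17 cells (circles) and Th1 cells (squares); filled symbols would mark an edgeR adjusted p under 0.05 and there are none. mt-Rnr2 in Th17 lies at 0.25 and mt-Nd3 in Th1 at 0.17, and most of the other protein genes lie within 0.1 of 0.

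Nuclear genes that act on mitochondrial DNA and RNA were described from lists. Of 10 genes of mitochondrial transcription, 2 were higher and 2 lower in Th17 in each genotype, or 40.0%, where 53.6% of all genes passed in KO and 47.1% in WT cells. In WT cells 1 was lower without the 3 shallow libraries. Mterf2, a factor that binds mitochondrial DNA, was higher by 0.84 ± 0.21 in KO cells (edgeR adjusted p = 0.00137) and 0.94 ± 0.23 in WT cells (edgeR adjusted p = 0.00138). Tfb2m, the initiation factor of the mitochondrial RNA polymerase, was higher by 0.54 ± 0.13 in KO cells (edgeR adjusted p = 0.00132) and 0.41 ± 0.16 in WT cells (edgeR adjusted p = 0.0308). The Tfb2m call in WT cells was lost without Th17 WT 1 (0.09, adjusted p = 0.826), without Th1 WT 1 (0.054) or Th1 WT 2 (0.0847), with no filter (0.0656) and in DESeq2 (0.143). Tfam, which packages mitochondrial DNA and starts its transcription, was lower by a log2 fold change of -0.22 ± 0.09 in KO cells (edgeR adjusted p = 0.0415) and -0.33 ± 0.10 in WT cells (edgeR adjusted p = 0.00742). In KO cells the Tfam call was lost in 6 of 19 alternatives, without Th17 KO 1 (-0.10, adjusted p = 0.448), Th1 KO 1 (0.0931), Th1 KO 3 (0.0846) or Th1 WT 2 (0.0563), with only the 2 groups in the fit (0.0526) and in DESeq2 (0.136). Members of this list thus moved in both directions, with a median of -0.07 in KO and -0.03 in WT cells.

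Of 15 tested genes of mitochondrial DNA replication and nucleoids, 1 was higher and 6 lower in Th17 in KO cells, and 0 were higher and 3 lower in WT cells. That was 46.7% in KO and 20.0% in WT cells, below the 53.6% and 47.1% of all genes. The fit without the 3 shallow libraries gave 5 lower in KO and 2 in WT cells, and the count in WT cells ran between 1 (DESeq2, or without Th1 WT 3) and 5 (without Th1 WT 1). Polg2, the accessory subunit of the mitochondrial DNA polymerase, was higher in KO cells (0.94 ± 0.18, edgeR adjusted p = 8.93e-05). Mgme1, an exonuclease for mitochondrial DNA, was lower in KO cells (-0.97 ± 0.19) and WT cells (-0.53 ± 0.21), and the value in WT cells did not pass in 7 of 19 alternatives, namely without the 3 shallow libraries (edgeR adjusted p = 0.11), in DESeq2 (0.12) and without any 1 of the Th17 WT libraries, Th1 WT 2 or Th1 WT 3. Of 11 tested regulators of mitochondrial biogenesis, 0 were higher and 4 lower in KO cells, and 0 higher and 5 lower in WT cells. The shares called, 36.4% in KO and 45.5% in WT cells, were below those of all genes, of which 26.7% and 23.6% were lower. There were 5 lower in KO and 4 in WT cells without the 3 shallow libraries, and 3 were lower in WT cells without Th17 WT 1. They included Nrf1, a transcription factor for respiratory chain genes (-0.53 ± 0.09 in KO, -0.42 ± 0.09 in WT cells), the coactivator Pprc1 (-0.56 ± 0.12 and -0.47 ± 0.13, the call in WT cells being lost without Th17 WT 1) and the deacetylase Sirt1 (-0.45 ± 0.08 and -0.52 ± 0.09).

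Among 26 genes of mitochondrial RNA processing and decay, 3 were higher and 4 lower in Th17 in KO cells, and 2 higher and 6 lower in WT cells. These were 26.9% and 30.8% of the list, where 53.6% and 47.1% of all genes passed. In each genotype 3 were higher and 5 lower without the 3 shallow libraries. In KO cells 2 were lower without Th17 KO 3, Th1 KO 1 or Th1 KO 2, with only the 2 groups and in DESeq2, and in WT cells 3 were lower without Th17 WT 1 and 2 in DESeq2. Hsd17b10, a subunit of the nuclease that cuts the 5′ ends of mitochondrial tRNAs, was at 55.8 ± 2.8 CPM in Th17 KO, 50.6 ± 9.9 CPM in Th17 WT, 31.5 ± 1.2 CPM in Th1 KO and 27.6 ± 0.62 CPM in Th1 WT (SD, n = 3 each). Its log2 fold change was 0.82 ± 0.09 in KO cells (edgeR adjusted p = 3.04e-08) and 0.89 ± 0.10 in WT cells (edgeR adjusted p = 4.99e-08). Nsun4, which methylates 12S rRNA, was also higher (1.04 ± 0.19 in KO, 0.70 ± 0.22 in WT cells, a call lost without Th17 WT 2). Tbrg4 was lower in both (-0.46 ± 0.08 and -0.57 ± 0.09), and Lrpprc, which stabilises mitochondrial mRNAs, was lower in WT cells (-0.40 ± 0.08). Lrpprc was not among the at most 4 genes of smallest p in KO cells, so its value there is not given. A fall in WT cells only cannot be read from this.

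Some genes of this list differed by genotype. In Th17 KO against Th17 WT 3 of the 26 were higher and 0 lower (11.5%, where 5.83% of all genes passed), and in Th1 KO against Th1 WT 1 was higher and 0 lower (3.85%, where 4.61% passed). Rexo2, an exonuclease that degrades short mitochondrial RNAs, was at 75.9 ± 3.9 CPM in Th17 KO, 55.3 ± 7.1 CPM in Th17 WT, 60.7 ± 4.6 CPM in Th1 KO and 49.7 ± 2.5 CPM in Th1 WT (SD, n = 3 each). It was higher in KO by 0.48 ± 0.09 in Th17 (edgeR adjusted p = 0.00125) and 0.29 ± 0.07 in Th1 (edgeR adjusted p = 0.0201). The call in Th1 was lost without Th1 KO 1, Th1 KO 2 or Th1 WT 1 and in DESeq2, where 0 of the list passed. In Th17 KO, Lrpprc (0.33 ± 0.09, edgeR adjusted p = 0.0252) and Pnpt1, the mitochondrial polynucleotide phosphorylase (0.33 ± 0.09, edgeR adjusted p = 0.0288), were also higher, and neither passed without the 3 shallow libraries (0.115 and 0.0918), without Th17 KO 1 or Th17 WT 2, with only the 2 groups or in DESeq2. Lrpprc also missed without Th17 WT 3, and Pnpt1 without Th17 KO 3 or Th17 WT 1. Averaged over both cell types 7 of 26 were higher in KO and 0 lower, or 26.9%, where 9.83% of all genes passed. Over the alternatives this count ran between 2 (DESeq2) and 7, and it was 4 without Th17 KO 1, Th17 KO 3, Th17 WT 1, Th17 WT 2 or Th1 WT 3. In Th17 alone 1 of the 26 was left without Th17 KO 1 or Th17 WT 2, with only the 2 groups and in DESeq2.

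Nuclear genes encode the other subunits of the complexes, and in each complex some were called higher and some lower in Th17. Of 36 nuclear complex I genes, 3 were higher and 13 lower in KO cells (median -0.14), and 5 were higher and 9 lower in WT cells (median -0.16). The shares called were 44.4% in KO and 38.9% in WT cells, below the 53.6% and 47.1% of all genes. Of 9 nuclear complex III genes, 1 was higher and 4 lower in each genotype (55.6%). Nuclear complex IV had 1 higher and 2 lower of 11 in KO cells (27.3%) and 1 higher and 3 lower in WT cells (36.4%), and nuclear complex V had 2 higher and 5 lower of 17 in KO cells (41.2%) and 2 higher and 7 lower in WT cells (52.9%). Leaving out the 3 shallow libraries, the WT counts were 4 higher and 7 lower for complex I, 1 higher and 3 lower for complex III, 1 higher and 1 lower for complex IV, and 2 higher and 3 lower for complex V. In KO cells the same fit left complexes I and III at the same counts and gave 2 higher and 3 lower for complex IV and 2 higher and 6 lower for complex V. In WT cells 1 gene of complex IV was lower also without Th17 WT 2, without Th1 WT 2 and in DESeq2. Complex II, which has no mitochondrial gene, had 2 higher and 1 lower of 4 in KO cells and 1 of each in WT cells.

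Partners of 1 complex were called in both directions. Cox5a of complex IV was lower in Th17 (-0.65 ± 0.07 in KO, -0.58 ± 0.08 in WT cells), while mt-Co1 and mt-Co2 of the same complex were higher. Uqcrh of complex III was higher (0.42 ± 0.06 and 0.50 ± 0.07), and Cyc1, cytochrome c1, was lower (-0.65 ± 0.09 and -0.42 ± 0.09). Ndufs1, the largest subunit of complex I, was lower (-0.48 ± 0.07 and -0.39 ± 0.08), and Ndufa6, another subunit, was higher (0.47 ± 0.09 and 0.62 ± 0.10). For KO against WT, the smallest edgeR adjusted p over these 5 lists was 0.0784 in Th17, for Ndufa4 (0.37 ± 0.12), and 0.0696 in Th1, for Ndufa5 of complex I (0.32 ± 0.10), which passed without the 3 shallow libraries (0.0435). Averaged over both cell types, Ndufa4 of complex IV was higher in KO (0.27 ± 0.08, edgeR adjusted p = 0.0278), a call lost in 8 of 19 alternatives, namely DESeq2 (0.151) and the fits without Th17 KO 3, Th17 WT 1, Th17 WT 2, Th1 KO 1, Th1 KO 3, Th1 WT 1 or Th1 WT 3.

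The nuclear RNAs Malat1 and Neat1 were also higher in Th17, beside the mitochondrial share. Of all tested genes, 26.9% passed as higher in KO and 23.5% in WT cells. Malat1, a nuclear long noncoding RNA, was at 3999 to 4458 CPM in Th17 KO, 3917 to 4209 CPM in Th17 WT, 2932 to 3005 CPM in Th1 KO and 3106 to 3496 CPM in Th1 WT. It was higher in Th17 by 0.54 ± 0.07 in KO cells (edgeR adjusted p = 8.07e-07) and 0.33 ± 0.07 in WT cells (edgeR adjusted p = 4.91e-04). Neat1, another nuclear RNA, was higher by 1.06 ± 0.17 (edgeR adjusted p = 4.72e-04) and 0.97 ± 0.18 (edgeR adjusted p = 0.00148). Neither passed between KO and WT in Th17 or in Th1. Their part in the mitochondrial differences was not tested.

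Markers of other cells of the cultures moved with the cell type. The B cell and the myeloid genes summed to a few CPM at most, while the sum of the antigen presentation genes was larger in all groups and higher in every Th17 library than in any Th1 library. The 5 B cell genes summed to 2.10 to 4.79 CPM in Th17 KO, 0.763 to 1.58 CPM in Th17 WT, 0.278 to 0.969 CPM in Th1 KO and 0.208 to 0.313 CPM in Th1 WT. The 7 myeloid and dendritic cell genes summed to 4.20 to 4.98 CPM in Th17 KO, 3.12 to 5.54 CPM in Th17 WT, 2.29 to 3.63 CPM in Th1 KO and 2.04 to 2.32 CPM in Th1 WT. The 4 antigen presentation genes summed to 84.5 to 92.1 CPM in Th17 KO, 62.3 to 81.5 CPM in Th17 WT, 13.2 to 17.2 CPM in Th1 KO and 14.8 to 16.9 CPM in Th1 WT. Within Th17, the B cell and antigen presentation sums were also higher in every KO library than in any WT library, while the myeloid sums overlapped. Of all tested genes, 18.5% had Th17 KO and Th17 WT ranges apart (8.94% higher in KO). The B cell sums rest on few counts, and 0 of the 5 genes could be tested. A count of 0 allows up to 1.74 CPM in the shallow library Th17 KO 2 and 1.82 CPM in Th17 WT 3 (of the whole library total). The B cell difference within Th17 is thus near the floor. In Th1 the KO and WT sums overlapped for B cell and antigen presentation genes. Of the defining genes, Ms4a1 was at 0 in both WT groups, Csf1r in both Th1 groups, Itgax and Adgre1 in Th1 WT, H2-Aa in Th1 KO, Tyrobp in Th17 WT and Ncr1 of NK cells in all libraries. The part of other cells in the mitochondrial values was not tested.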

How the data were processed

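Total RNA of 12 sorted samples was sequenced as read pairs after poly-A-dependent cDNA synthesis and tagmentation with kits that do not mark strand, per the labels' protocols. Per the submitters' processing notes, the tools were TopHat2, Bowtie2 and featureCounts and the build was GRCm38 (mm10). Tool versions, annotation release, strand setting and the handling of multi-mapping reads are not given in the sources used here. What was deposited is raw counts per Ensembl gene ID without normalisation, judged from whole numbers that sum to a different total in each library.

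Of 39179 gene IDs, 37693 (96.2%) were named with GENCODE M21, which also gave coordinates, lengths and sequences. Shares are percent of a library's counts after removing ENSMUSG00000045999 and were not tested. Counts were filtered with filterByExpr, normalised by TMM and tested in edgeR 4.0.16 (quasi-likelihood F-test, robust, 4 group means over all 12 samples) with Benjamini-Hochberg adjustment over 12189 genes in each of 6 comparisons, at 0.05. A fold change is Th17 over Th1 or KO over WT, and the SE is its size over the root of F. The fit weights deep libraries, so it can differ from a ratio of mean CPM. Replicates are numbered in accession order and the numbers are only names. With 3 samples against 3, the smallest p of an exact permutation test is 0.1.

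Named genes were every mt- gene, the genes annotated as their nuclear copies, from each list the members past the threshold with the smallest p, at most 4 (where none passed, only the member with the smallest p), Malat1, Neat1, ENSMUSG00000045999 and Klrk1. 1 gene that this rule names is not reported here. The members and lists were chosen with earlier results of these data known. The alternatives tried were DESeq2 1.42.0, size factors by RLE, no filter on low counts, counts without ENSMUSG00000045999, library sizes from nuclear genes, only the 2 groups compared, a block by library code, no shallow libraries and each sample left out. The test was also run on counts simulated from its own model, with the same means in Th17 and Th1. That run cannot check the model's assumptions on these data, since it shares them. Statistics used R 4.3.3, and tables and plots used pandas 2.3.3 and matplotlib 3.10.9 under Python 3.11.15.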

Additional observations from a re-analysis of the deposited data

How the results depend on the processing

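Of 2200 member values under an alternative, 1987 kept their direction and side of the threshold, 41 lost a call, 36 gained one, 135 uncalled values changed sign and 1 called value turned, mt-Co3 in Th17 WT over Th1 WT (-0.0207 without the 3 shallow libraries). For Th17 KO against Th17 WT, 711 genes passed in the main fit, 356 with only the 2 groups, 319 without the shallow libraries and 411 to 713 leaving out 1 library (411 without Th17 WT 2, 453 without Th17 KO 1, 458 without Th17 KO 3). There, 0 members passed in the main fit, 1 without ENSMUSG00000045999, 2 without the shallow libraries, 1 in DESeq2 and 0 to 1 leaving out 1 library (mt-Nd4, without Th17 KO 2). For Th1 KO against Th1 WT, 562 genes passed, 922 with only the 2 groups, 317 in DESeq2 and 260 to 679 leaving out 1 library (260 without Th1 WT 2, 293 without Th1 KO 2, 343 without Th1 KO 1), and members went to 1 with only the 2 groups or without the shallow libraries. For the average, 2 members passed without the shallow libraries. The interaction called 72 genes, 207 with no filter and 38 (without Th17 KO 3) to 108 leaving out 1 library. Members called in Th17 over Th1 ran between 7 and 11 in KO and 6 and 12 in WT cells leaving out 1 library. The causes were not tested.

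The difference in share of Th17 KO and Th17 WT was 2.34 points, 3.68 without the shallow libraries, -0.0163 for the 13 protein genes alone and -0.017 without mt-Rnr2, and 1.93 to 2.85 leaving out 1 library. For Th17 KO over Th1 KO it was 5.16 points, 1.93 with ENSMUSG00000045999 in the total, 0.316 for the protein genes and 0.968 without mt-Rnr2. For Th17 WT over Th1 WT it was 3.15 points, -0.816, 0.455 and 1.16 under the same 3 changes. The setting without mt-Rnr2 was chosen after seeing the data. Leaving out the shallow libraries, Th17 KO exceeded the 1 remaining Th17 WT library by 0.077 points for the protein genes and by 0.2865 without mt-Rnr2. No scaling moved the median of all genes by over 0.1 on the log2 scale.

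The labels give no replicate numbers. With neighbouring library codes of KO and WT cells as a block, 1315 genes passed in Th1, 1117 in Th17 and 329 in the interaction, and 1 member in each (mt-Nd3 in Th1, mt-Nd2 in Th17 and in the interaction). The labels do not state such a pairing, and it could not be fitted for Th17 over Th1. KO and WT cells were cultured together, so their samples may share cultures, and the main fit uses no pairing. mt-Nd4l had 3 to 25 counts in a library, and 18 of 22 tRNA genes were too low to test.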
